A study of Mus musculus with 8 samples.

Results

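The genes described here encode the enzymes of oxidative phosphorylation: the 4 electron transfer complexes of the respiratory chain and ATP synthase, which is complex V. They were chosen by gene symbol. A probe set was taken where its single annotated symbol began with Nduf, with Sdh followed by a letter from a to d, with Uqcr, with Cox4 to Cox8, or with Atp5. The rule found 94 genes on 185 probe sets, out of 18193 genes on 34945 probe sets with a single symbol. Of the 94 genes, 82 carry subunit names: 36 in complex I (Nduf), 4 in complex II (Sdh), 8 in complex III (Uqcr), 17 in complex IV (Cox) and 17 in complex V (Atp5). The other 12 are assembly factors that share a prefix, 8 for complex I (Ndufaf) and 4 for complex II (Sdhaf). The symbols placed the genes in their complexes, and no measured value was used. Ndufa4 and its paralog Ndufa4l2 are counted in complex I by their prefix, although the Ndufa4 protein is known as a subunit of complex IV.

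Affymetrix arrays measured the RNA of NIH3T3, a long established line of mouse embryonic fibroblasts. The cells had been transduced with an mCherry-hCdt1(30/120) reporter and an mVenus-p27K- reporter, of which p27K- is a p27 mutant that does not bind cyclin-dependent kinases. All cells of both groups carried both reporters, had been deprived of serum, and had then spent 5 hours in DMEM with 10% serum, so both groups were exposed to serum. G1 cells were sorted by flow cytometry as mVenus(-)/mCherry(+), and G0 cells as mVenus(+)/mCherry(+), with 4 arrays per group. Whether replicates were separate cultures is not stated in the labels. A p-value here is therefore set against a spread between samples that may be purely technical.

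The respiratory chain sits in the inner mitochondrial membrane. Complex I takes electrons from NADH and complex II takes them from succinate. Complex III passes them from ubiquinol to cytochrome c, and complex IV passes them on to oxygen. Complexes I, III and IV pump protons across the membrane, and ATP synthase lets the protons flow back to drive the synthesis of ATP. Nearly all subunits are nuclear genes, and the rest are encoded in mitochondrial DNA. In fibroblasts the nuclear subunit genes are broadly expressed, while a few subunits have isoforms known from muscle, lung or testis.

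Every deposited value is a log2 value relative to that probe set's own median over the 8 arrays. A value therefore shows how an array stands against the others for that probe set, and not how abundant a transcript is. Levels of different genes could not be compared, and the expression of the fibroblast markers could not be checked from a level. The array medians over all probe sets lay between −0.07 and 0.09, so the arrays shared a scale, and a difference is relative to the bulk of the transcriptome. In sorted bulk samples, fewer cells of a type and less RNA per cell cannot be told apart. The precision rests on 4 arrays per group.

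The 94 genes, assembly factors included, differed little as a set between G1 and G0 cells. Over the 94 genes the median log2 difference, G1 minus G0, was 0.0019, and 47 genes had positive and 47 had negative values. For the 82 genes with subunit names the median was 0.03, with 44 positive and 38 negative. The middle of the distribution of the 94 genes was narrow, with quartiles at −0.08 and 0.08. The median absolute difference was 0.0862 on the log2 scale, against 0.346 over all genes tested, for which the median signed difference was −0.06. None of the 94 genes passed limma's test at a Benjamini-Hochberg adjusted p of 0.05, and the lowest adjusted p among them was 0.448. The same test called 95 of 18193 genes, which is 0.522%, with 91 higher and 4 lower in G1. That count was 0 with the replicate number as a block, 28 without G0 replicate 1, 67 without G0 replicate 3 and 0 without any of the other 6 arrays, with 1235 to 1658 genes at an unadjusted p under 0.05 when 1 array was left out and 1456 with the block. The proliferation marker Mki67, chosen after its value was seen, was among the genes higher in G1, with a log2 difference of 3.82 (SE 0.25, adjusted p = 0.00889 by limma).

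**Figure D1:**
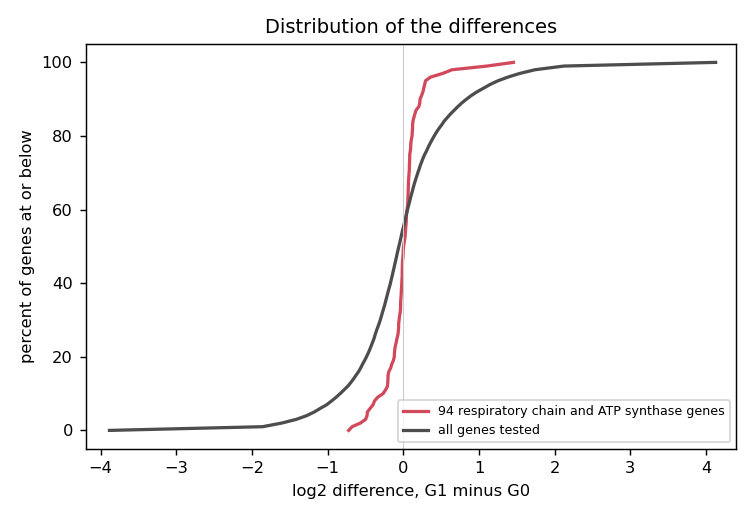
Share of genes, in percent on the vertical axis, whose log2 difference, G1 minus G0, is at or below the value on the horizontal axis, for the 94 respiratory chain and ATP synthase genes and for the 18193 genes tested. The curve of the 94 genes is steep, with quartiles at −0.08 and 0.08 and a range from −0.72 to 1.45, while the curve of all genes is wider.

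The weaker criteria found few genes as well. At an unadjusted p under 0.05, 1 of the 94 genes was higher in G1 (Ndufaf2) and 1 was lower (Ndufb4), where 4.33% of all genes were higher and 3.74% were lower. The 4 G1 values all lay above the 4 G0 values in 2 genes, Ndufv1 and Ndufaf2, and in 3.79% of all genes. They all lay below in 3 genes, Ndufb4, Ndufa6 and Ndufv3, and in 3.28% of all genes. These counts are near or under the share over all genes, and they are not a result about the respiratory chain.

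The intervals give the size of change that the arrays allow. A log2 difference of 1 is a doubling. The 95% confidence interval from limma lay wholly within 1 log2 unit of 0 for 74 of the 94 genes, or 78.7%, against 5902 of 18193 genes, or 32.4%, over the whole table. The median distance from the estimate to the end of its interval was 0.52 for the 94 genes and 0.995 for all genes. The median residual standard deviation was 0.227 against 0.644. A smaller residual spread thus stood beside the smaller differences, and its part in them was not tested. For the other 20 genes the interval reached beyond a doubling or a halving, so a change of that size was not bounded. An interval within 1 log2 unit does not mean that a doubling would have passed the adjusted threshold. The smallest absolute log2 difference among the 95 genes called in the whole table was 1.34, and that no member passed does not show that the groups are alike. By complex, the interval lay within 1 log2 unit for 30 of 36 genes of complex I, 4 of 4 of complex II, 6 of 8 of complex III, 11 of 17 of complex IV and 15 of 17 of complex V. These counts depended on the probe set. With a gene's probe sets averaged, 78 of the 94 genes lay within 1 log2 unit, and Sdha of complex II did not.

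**Figure D2:**
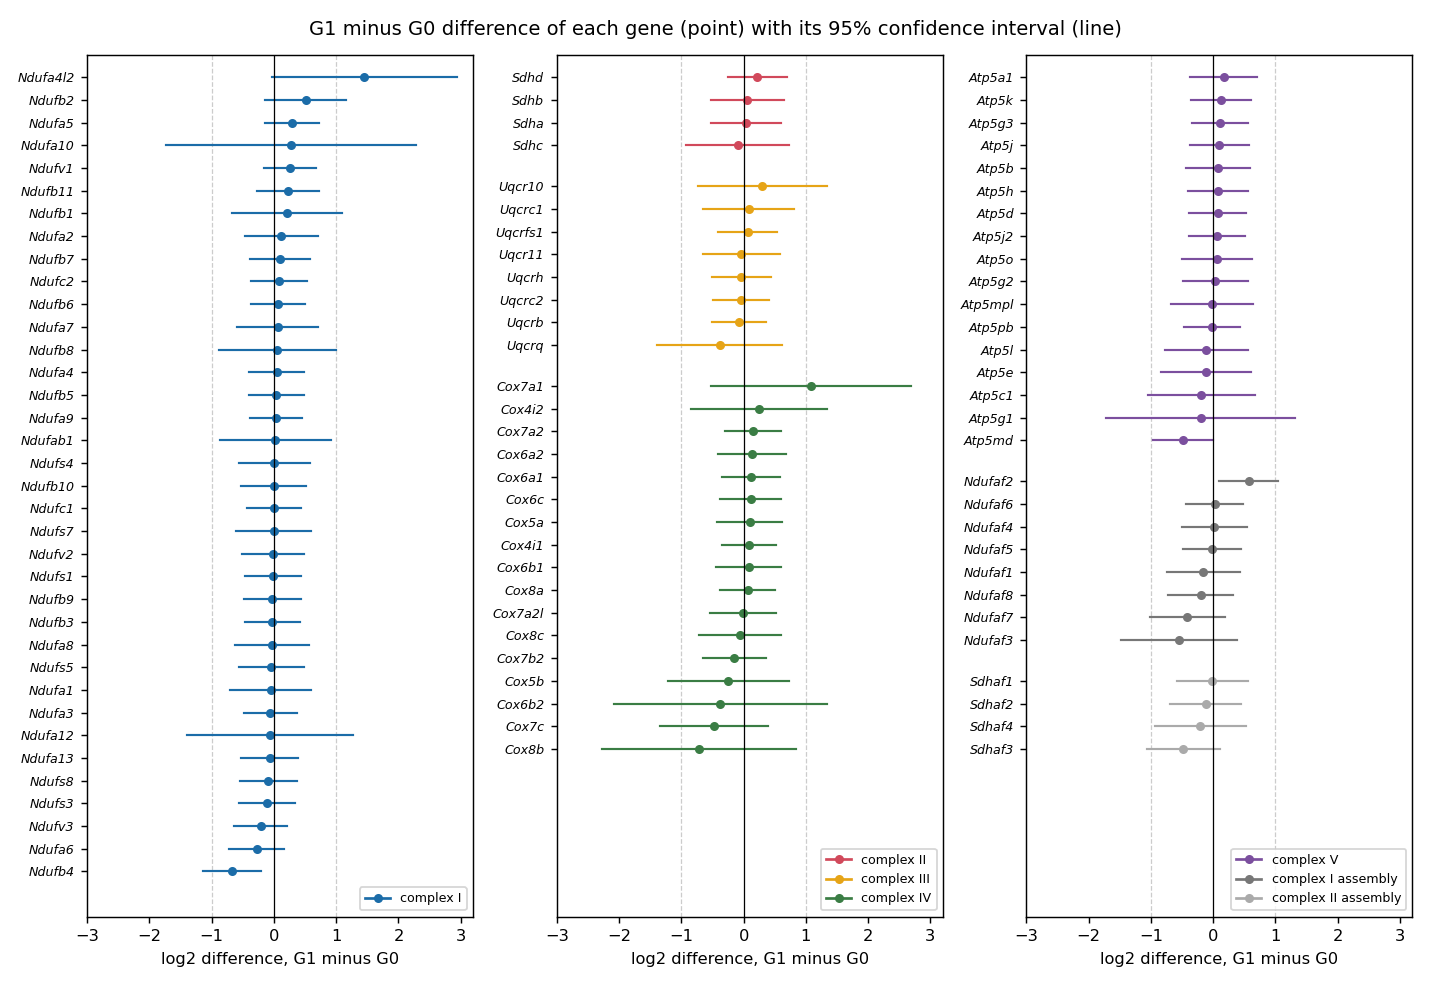
Log2 difference, G1 minus G0, of each of the 94 respiratory chain and ATP synthase genes on the horizontal axis, grouped by complex, with the 95% confidence interval from limma as a line (4 arrays per group) and dashed lines 1 log2 unit either side of 0. Most estimates lie close to 0, and the 4 widest intervals are those of Ndufa10, Cox6b2, Cox7a1 and Cox8b.

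All 5 complexes had median differences close to 0. The median log2 difference was 0.0019 in complex I, 0.05 in complex II, −0.04 in complex III, 0.08 in complex IV and 0.06 in complex V. Positive and negative differences numbered 18 and 18 in complex I, 3 and 1 in complex II, 3 and 5 in complex III, 10 and 7 in complex IV, and 10 and 7 in complex V. The median over the subunits of a complex was also taken on each array. For complex I it ran from −0.06 to 0.04 on G1 arrays and from −0.08 to 0.04 on G0 arrays. For complex III it ran from −0.10 to 0.18 on G1 arrays and from −0.07 to 0.10 on G0 arrays. For complex IV it ran from −0.06 to 0.09 on G1 arrays and from −0.15 to 0.08 on G0 arrays. The groups overlapped in each of these complexes. For complex V it ran from −0.04 to 0.05 on G1 arrays and from −0.16 to 0.11 on G0 arrays, so the G1 values lay inside the G0 range. Complex II spread most, from −0.06 to 0.49 on G1 arrays and from −0.15 to 0.48 on G0 arrays. Its high values were single arrays, G1 replicate 4 and G0 replicate 3.

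**Figure D3:**
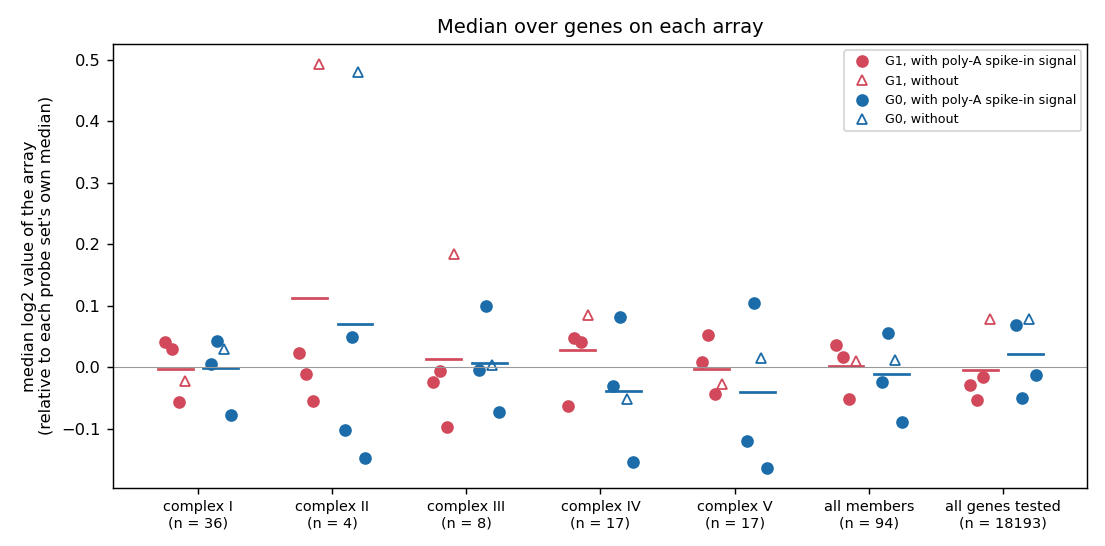
Median log2 value over the subunits of each complex on each array, relative to each probe set's own median, with G1 arrays left of G0 arrays, a bar at each group's mean and open triangles for arrays without poly-A signal. The groups overlap in every complex, and complex II stands high on 1 array of each group, at 0.49 and 0.48.

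Those 2 arrays, G1 replicate 4 and G0 replicate 3, stood apart from the other 6. The mean log2 value of the poly-A spike-in controls, which are added to the RNA before labelling, was −6.39 on G1 replicate 4 and −6.66 on G0 replicate 3, against −0.17 to 0.60 on the other arrays. The labels instead give another labelling protocol to G0 replicate 4 and to a sample whose written name was read here as G1 replicate 4. That reading is an inference, made because the name stands beside that of G0 replicate 4. The 2 arrays without poly-A signal, G1 replicate 4 and G0 replicate 3, also differed in signs of RNA quality. The 5′ minus 3′ log2 value of the actin control was 0.78 on both, against −0.19 to 0.12 on the other 6, and that of the Tfrc control was 1.92 on G1 replicate 4 and 1.89 on G0 replicate 3, against −0.51 to 0.70. The 18S probe set had −5.57 on G1 replicate 4 and −5.70 on G0 replicate 3, against −0.50 to 0.56. The part of these differences in the results was not tested. The test above holds the labelled batch as a covariate. With the batch taken from the spike-in controls in its place, the estimated differences are the same and their errors change. None of the 94 genes then passed an adjusted p of 0.05 either, with the lowest at 0.177 for Ndufaf2, while 1.01% of all genes passed. At an unadjusted p under 0.05 there were then 3 of the 94 genes, Ndufb4, Atp5md and Ndufaf2, against 12.4% of all genes. With the 2 arrays left out, none of the 94 passed and the lowest adjusted p was 0.474.

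The gene with the lowest p was Ndufb4, an accessory subunit of the membrane arm of complex I. Its values were −0.04, −0.44, −0.10 and −0.58 on the G1 arrays, against 0.65, 0.29, 0.55 and 0.04 on the G0 arrays. Every G1 value lay below every G0 value, though G1 replicate 1 and G0 replicate 4 were close. The log2 difference was −0.67 (SE 0.20, 95% interval −1.14 to −0.20), which is 1.60-fold lower in G1, with an unadjusted p of 0.0113 and an adjusted p of 0.448 by limma. Without G1 replicate 4 and G0 replicate 3 the unadjusted p was 0.066. Ndufb4 has 1 probe set of its own. The probe sets annotated to Ndufb4 together with further copies of the gene, which were not counted as members, had differences of −0.18 (SE 0.22) and −0.20 (SE 0.23), so the signal of Ndufb4 and of its copies could not be kept apart with certainty.

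Ndufaf2 encodes an assembly factor of complex I and is a paralog of the subunit gene Ndufa12. It had log2 values of 0.57, 0.59, 0.26 and 0.09 on the G1 arrays, against −0.09, −0.12, −0.39 and −0.18 on the G0 arrays. All G1 values were above all G0 values. The difference was 0.57 (SE 0.20, 95% interval 0.10 to 1.05), or 1.49-fold, with an unadjusted p of 0.0247 and an adjusted p of 0.597 by limma. The unadjusted p was 0.00406 when the batch was taken from the spike-in controls. Of the other 7 Ndufaf genes, 2 had positive and 5 had negative differences, with a median of −0.16, and none passed the test. All 4 Sdhaf genes had negative differences on the probe sets used, with a median of −0.17, and none passed the test. For Sdhaf3 the sign depended on the probe set, with −0.48 on the one used and 0.18 on the other.

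The promoter letters of 4 genes are shown so that the regions around the results can be read: Ndufb4 and Ndufaf2 as the genes with the lowest p in each direction, and Sdhb and Cox6a1 as subunit genes whose promoters hold motifs known from respiratory genes. Each line is the 250 bases before the annotated start, 5′ to 3′ on the gene's strand, from RefSeq on GRCm38.p6. The positions are chr16:37654369-37654618 on the minus strand for Ndufb4, chr13:108158626-108158875 on the minus strand for Ndufaf2, chr4:140961021-140961270 on the plus strand for Sdhb, and chr5:115348959-115349208 on the minus strand for Cox6a1. Capitals mark a motif match on either strand.
Ndufb4: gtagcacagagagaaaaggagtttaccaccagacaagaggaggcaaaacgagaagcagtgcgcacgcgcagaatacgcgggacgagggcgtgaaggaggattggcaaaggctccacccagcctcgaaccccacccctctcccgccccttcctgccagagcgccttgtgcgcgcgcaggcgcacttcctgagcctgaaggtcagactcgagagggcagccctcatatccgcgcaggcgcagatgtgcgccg
Ndufaf2: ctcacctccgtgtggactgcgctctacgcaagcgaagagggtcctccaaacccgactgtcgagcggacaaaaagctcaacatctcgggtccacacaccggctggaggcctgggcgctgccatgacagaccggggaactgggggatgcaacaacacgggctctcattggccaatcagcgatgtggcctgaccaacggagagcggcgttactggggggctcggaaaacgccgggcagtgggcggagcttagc
Sdhb: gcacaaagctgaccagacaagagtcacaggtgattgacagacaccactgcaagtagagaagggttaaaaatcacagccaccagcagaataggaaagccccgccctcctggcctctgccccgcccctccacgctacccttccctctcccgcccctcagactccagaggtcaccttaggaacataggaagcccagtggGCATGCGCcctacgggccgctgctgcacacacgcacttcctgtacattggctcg
Cox6a1: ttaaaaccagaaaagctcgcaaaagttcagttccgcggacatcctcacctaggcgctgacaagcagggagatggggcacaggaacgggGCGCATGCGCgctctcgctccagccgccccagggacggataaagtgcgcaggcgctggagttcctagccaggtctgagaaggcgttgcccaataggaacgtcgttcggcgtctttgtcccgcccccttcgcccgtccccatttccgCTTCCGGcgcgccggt

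In these lines the capitals in Sdhb are the letters GCATGCGC, 54 bases before the start. In Cox6a1 the first run of capitals holds GCATGCGC on both strands, in 2 overlapping matches that begin 162 and 160 bases before the start. Its second run is CCGGAAG read on the other strand, 16 bases before the start. Such overlapping pairs occurred in 4 of the promoters, and each promoter was counted once per motif. Ndufb4 and Ndufaf2 hold none of the motifs searched. NRF1, which binds letters like GCATGCGC, and GABP, an ETS factor that binds letters like CCGGAAG, are known regulators of respiratory genes. Promoters were found for 78 of the 94 genes, and 4 kinds of motif were searched on both strands in 250 bases. GCATGCGC was in 8 of the 78 promoters, or 10.3%, against 3.58% of the 14368 promoters of measured genes and 5.33% of the 75 promoters of genes that were higher in G1. CCGGAAG was in 15, or 19.2%, against 10.6% of all promoters and 28% of those of the genes higher in G1. AAGATGGC, letters bound by YY1, was in 0 of the 78, in 1.77% of all promoters and in 4% of those of the genes higher in G1. TTTCCCGC or TTTGGCGC, letters bound by E2F factors of the cell cycle, were in 2, or 2.56%, against 2.09% of all promoters and 9.33% of those of the genes higher in G1. In all, 23 of the 78 promoters held at least 1 motif and 55 held none. These counts describe letters and not binding.

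Among the core subunits of complex I, which carry the flavin and the iron-sulfur clusters, Ndufv1 binds the flavin that accepts electrons from NADH. Its values were 0.28, 0.10, 0.10 and 0.08 on the G1 arrays, against −0.10, −0.08, −0.12 and −0.19 on the G0 arrays. The groups did not overlap, but the gap was small: the log2 difference was 0.26 (SE 0.18) with an adjusted p of 0.840. Its 3 probe sets had differences from 0.17 to 0.26. The other core subunits lay nearer to 0, with differences of −0.02 for Ndufs1, −0.12 for Ndufs3, −0.09 for Ndufs8 and −0.01 for Ndufv2, and −0.005 for Ndufs7. None of them passed the test.

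Accessory subunits of complex I gave the remaining genes without overlap. Ndufa6, an accessory subunit of the LYR family, had values of −0.08, −0.03, −0.24 and −0.29 on the G1 arrays, against 0.13, 0.26, 0.05 and 0.03 on the G0 arrays. Ndufv3, an accessory subunit of the NADH-oxidising module, had −0.05, −0.25, −0.01 and −0.03 on the G1 arrays, against 0.07, 0.01, 0.20 and 0.22 on the G0 arrays. Both were below in all G1 arrays by small amounts. The log2 difference was −0.28 (SE 0.19, adjusted p = 0.835) for Ndufa6 and −0.21 (SE 0.18, adjusted p = 0.890) for Ndufv3. Ndufb2, another membrane arm subunit, had a difference of 0.51 (adjusted p = 0.786), but −0.12 on the probe set with the smallest spread.

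The largest difference among the 94 genes was that of Ndufa4l2, a paralog of the complex IV subunit Ndufa4 that is known as a hypoxia-induced gene. Its values were 1.26, 1.52, −0.57 and 0.69 on the G1 arrays, against 0.13, −2.07, −0.13 and −0.83 on the G0 arrays. The groups overlapped through G1 replicate 3. The log2 difference was 1.45 (SE 0.64, 95% interval −0.04 to 2.94), or 2.74-fold, with an adjusted p of 0.698. Ndufa4 itself ran from −0.15 to 0.25 on the G1 arrays and from −0.07 to 0.27 on the G0 arrays.

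**Figure D4:**
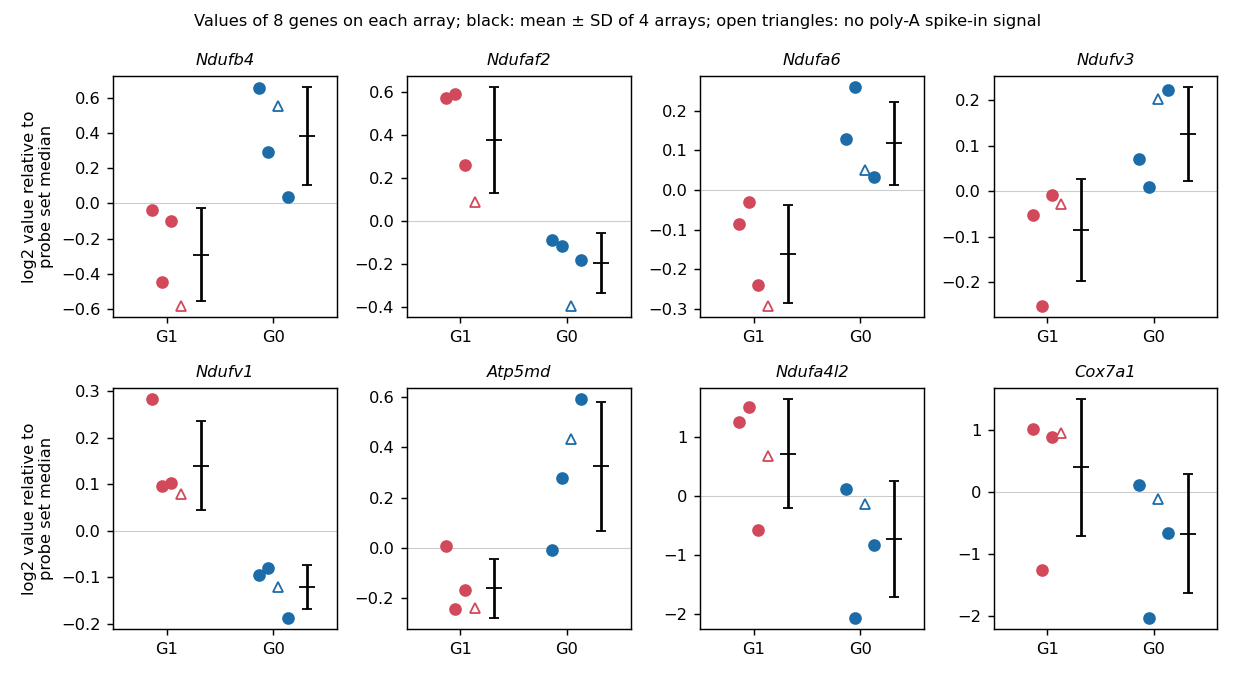
Log2 value on each array, relative to the probe set's own median, of 8 members, with G1 arrays left of G0 arrays, the mean ± SD of 4 arrays in black, and open triangles for the arrays without poly-A signal. The vertical scale differs between panels, and the groups of Ndufb4 and Ndufaf2 do not overlap while those of Ndufa4l2 do.

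Complex II, succinate dehydrogenase, is the smallest complex and also an enzyme of the citric acid cycle. The flavoprotein gene Sdha had values of −0.08, −0.11, 0.05 and 0.55 on the G1 arrays, against 0.06, −0.05, 0.40 and −0.15 on the G0 arrays. The iron-sulfur subunit gene Sdhb had 0.25, −0.0031, −0.13 and 0.44 on the G1 arrays, against −0.10, 0.0031, 0.56 and −0.14 on the G0 arrays. In both genes the highest value of each group came from the arrays without poly-A signal. The membrane anchor gene Sdhc showed the same, at 0.79 on G1 replicate 4 and 0.92 on G0 replicate 3. The log2 differences were 0.04 (SE 0.24) for Sdha, 0.06 (SE 0.25) for Sdhb, −0.10 (SE 0.35) for Sdhc and 0.22 (SE 0.20) for Sdhd, the second anchor gene. Their adjusted p values were 0.991, 0.988, 0.985 and 0.902. The probe sets disagreed, with differences from 0.04 to 1.11 for Sdha and from −0.36 to 0.22 for Sdhd. With a gene's probe sets averaged, the difference was 0.38 for Sdha (95% interval −0.47 to 1.23, beyond 1 log2 unit) and −0.07 for Sdhd, and neither passed the test.

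In complex III the 2 large core proteins and the Rieske iron-sulfur protein had small differences, 0.08 for Uqcrc1, −0.04 for Uqcrc2 and 0.06 for Uqcrfs1. The small subunit genes gave the ends of the range, −0.39 (SE 0.43) for Uqcrq and 0.30 (SE 0.44) for Uqcr10. These ends depended on the probe set. With the probe sets of each gene averaged, Uqcrq had 0.16 and Uqcr10 had 0.08. Uqcrq was the gene whose probe sets disagreed most, with differences from −0.45 to 1.36 over its 4 probe sets. None of these passed the test.

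In complex IV the general subunits Cox4i1, Cox5a and Cox8a had differences of 0.08 (SE 0.19), 0.10 and 0.07. Cox5b had −0.24, the lowest of its 6 probe sets, of which the highest had 1.17. It had 0.11 on its probe set of smallest spread and 0.22 with the probe sets averaged. On the probe sets used, the tissue isoforms spread further. Cox7a1, the heart and muscle isoform, had values of 1.02, −1.26, 0.89 and 0.96 on the G1 arrays, against 0.11, −2.04, −0.11 and −0.66 on the G0 arrays. 3 of its G1 arrays stood above all G0 arrays and the other was the second lowest of the 8. Its difference was 1.08 (SE 0.69, 95% interval −0.53 to 2.68, adjusted p = 0.826). Its ubiquitous counterpart Cox7a2 had 0.15. Cox8b, known as a muscle isoform, had −0.72 (SE 0.66, 95% interval −2.28 to 0.83), beside 0.07 for Cox8a. Cox6a2, the muscle isoform, had 0.14 and the general isoform Cox6a1 had 0.12. Cox4i2, known from lung, had 0.25 (SE 0.47). Cox7c, a subunit present in all tissues, had −0.47 (SE 0.37). None of the isoforms passed the test, and levels cannot be read to say whether the muscle isoforms were expressed. Of 5 striated muscle markers, none passed an adjusted p of 0.05, 1 was lower at an unadjusted p under 0.05 (Tnnt2, −1.73) and their median difference was −0.78. The mean over the 5 muscle markers ran from −1.28 to −0.04 on the G1 arrays and from −0.26 to 0.39 on the G0 arrays.

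In ATP synthase, the catalytic core gene Atp5b (beta) had a difference of 0.08 (SE 0.22) and Atp5a1 (alpha) had 0.17 (SE 0.23), with −0.06 on the Atp5a1 probe set of smallest spread. Atp5o, which encodes the stalk protein OSCP, had 0.06. Atp5c1 (gamma) had −0.19 (SE 0.37) and Atp5g1, a gene for the membrane ring, had −0.20 (SE 0.65), and both had 0.01 on the probe set of smallest spread. The lowest value in the complex was that of Atp5md, a small membrane subunit. Atp5md had 0.01, −0.24, −0.17 and −0.24 on the G1 arrays, against −0.01, 0.28, 0.43 and 0.59 on the G0 arrays. Only G0 replicate 1 lay within the G1 range. The difference was −0.49 (SE 0.21), with an unadjusted p of 0.0501 and an adjusted p of 0.685, and the unadjusted p was 0.027 when the batch was taken from the spike-in controls.

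More than 1 probe set was present for 53 of the 94 genes. Their differences had the same sign over all probe sets in 28 genes and opposite signs in 25, with a median range of 0.181 log2 units. Of the 185 probe sets, 105 had positive and 80 had negative differences, none passed an adjusted p of 0.05, and 2 had an unadjusted p under 0.05.

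The genes differed more between the arrays with and without poly-A signal than between the sorted groups. Of the 94 genes, 21 lay above all 6 other arrays on both of these arrays, and 12 lay below, so 35.1% stood apart, against 22.4% of all genes (14.4% above and 7.95% below). The median absolute shift of these 2 arrays from the other 6 was 0.238 log2 units, against 0.0862 for the difference between G1 and G0. Over all genes tested the median absolute shift was 0.507, larger than that of the members, against 0.346 for the difference between G1 and G0. The larger shift was thus not particular to the members. A difference of 2 arrays from 6 is also less precise than that of 4 from 4, and the part of this in the larger shift was not tested. Among the members the shift exceeded the difference between G1 and G0 in 64 of the 94 genes, a count not made over all genes. The shift ran from −0.70 for Atp5e, the epsilon subunit gene of ATP synthase, to 1.58 for Ndufa12. The 12 genes that were low included Atp5l, Ndufa1, Uqcr11 and Cox5a, and the high genes included Cox5b, Sdha, Sdhb, Sdhc, Uqcrc1 and Atp5mpl. Each sorted group holds 1 such array. The correlation of the 2 arrays over the 94 genes was 0.457, a description over genes that share a library on each axis.

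**Figure D5:**
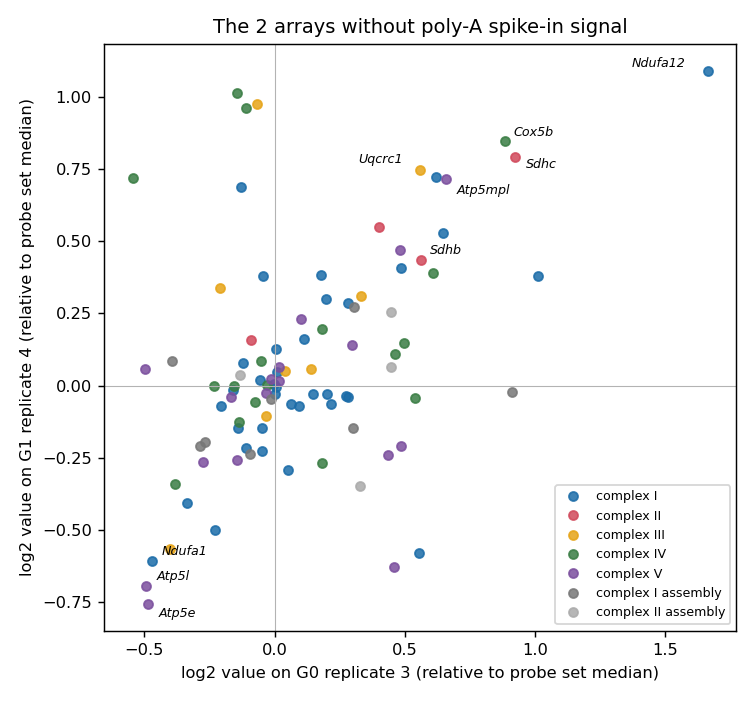
Log2 value of each of the 94 genes on G1 replicate 4 (vertical axis) against G0 replicate 3 (horizontal axis), the 2 arrays without poly-A signal, relative to the probe set's own median, coloured by complex. Ndufa12, Cox5b and Sdhc stand high on both arrays, and Atp5e and Atp5l stand low on both.

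Of 14 complex I assembly factors, 0 passed an adjusted p of 0.05 and 1 was higher at an unadjusted p under 0.05, Ndufaf2, with a median difference of −0.04. Of 33 measured assembly factors of complexes II to V, 0 passed, 1 was lower at an unadjusted p under 0.05 and the median was −0.07. That gene was Cmc1, a factor for complex IV, with a difference of −1.90 (SE 0.70, adjusted p = 0.619). Of 22 electron carriers and further subunits, 0 passed in either way, 8 had positive and 14 had negative differences, and the median was −0.04. They ran from −0.68 for Coq9 to 1.98 (SE 1.16) for Coq8a, both of ubiquinone synthesis, with Cycs (cytochrome c) at 0.19 and Cyc1 (cytochrome c1) at 0.23. Atp5md and Atp5mpl are in this list and also among the 94 genes, as are the Ndufaf and Sdhaf genes of the assembly lists. Of 15 regulators of respiratory gene transcription, 0 passed in either way, and the median was 0.03. Among them Ppargc1a, a coactivator of mitochondrial genes, had 1.34 (SE 0.79), Tfam, which acts on mitochondrial DNA, had 0.39, and Nrf1 had −0.19. The 6 mitochondrial carriers and porins had a median of 0.19, with 0 passing. For comparison, the median over all genes tested was −0.06. ND5, a complex I subunit encoded in mitochondrial DNA and chosen after its value was seen, had a difference of −0.0043 (95% interval −0.64 to 0.63).

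None of the markers of fibroblasts or of other cell types passed the adjusted threshold. Of the 9 fibroblast markers, 0 passed it and 1 was lower at an unadjusted p under 0.05 (Col3a1, −0.72, adjusted p = 0.432 by limma). The mean over the 9 markers ran from −0.56 to 0.37 on the G1 arrays and from −0.10 to 0.53 on the G0 arrays. Of the 5 measured leukocyte markers 1 was lower (Cd14, −0.65) and of the 4 endothelial markers 1 was higher (Pecam1, 1.16) at that level, and none of the 4 epithelial markers. Their part in the results above was not tested.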

How the data were processed

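The authors deposited log2 values, 1 column per array, and used MAS5, per the submitters' processing notes. Within each probe set the 8 values have a median of 0 (largest absolute median 5e-07). How logs and centring were done is not given in the labels or files. The log base was taken as 2 from the range of −12.4 to 5.58. Absolute levels, and so dim probe sets, could not be recognised. Of 45101 probe sets, 64 controls were left out.

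The other 45037 were fitted with limma 3.58.1 (lmFit and eBayes with its trend option, two-sided) in R 4.3.3. Group and labelled batch were the terms, on 8 arrays with 5 residual degrees of freedom. P-values were adjusted by Benjamini-Hochberg over all 45037 probe sets. The values are centred per probe set, so the trend follows the mean of the centred values and not intensity. Without the trend 75 of all genes passed, against 95 with it. A gene was represented by 1 probe set, preferring the suffix _at, then _a_at, then _s_at, then _x_at, then the lowest number. Tables were made in Python 3.11.15 with pandas 2.3.3, and the fit was tested on simulated data. The members and lists were chosen with earlier results of these data known. Named genes were those at an unadjusted p under 0.05, those without overlap, the 2 highest and 2 lowest of each complex, core subunits, tissue isoforms, and the genes of the further lists at an unadjusted p under 0.05. Promoters are RefSeq's, GRCm38.p6. Probe sets with several symbols were not used as members, 10 of them on such genes. Alternatives changed the batch term, weights, normalization, filter, probe set and arrays.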

Additional observations from a re-analysis of the deposited data

Results flagged for a closer look

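Of 92 groups of 4 values checked, 8 had an array far from the other 3, where chance gives about 1 in 20. On G1 replicate 2, Atp5c1 was −1.18 against −0.06 to 0.15 on the other G1 arrays, and Cox7a1 was −1.26 against 0.89 to 1.02. On G1 replicate 4, Atp5o was 0.47 against −0.02 to 0.00036, and the median of complex II was 0.49 against −0.06 to 0.02. On G1 replicate 1, Ndufv1 was 0.28 against 0.08 to 0.10. On G0 replicate 4, Atp5g1 was −2.13 against 0.13 to 0.46 on the other G0 arrays, Ndufv2 was −0.16 against −0.0087 to 0.01, and Uqcr10 was −1.03 against −0.07 to 0.08. The causes were not tested.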

How the results depend on the processing

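None of the 94 genes passed an adjusted p of 0.05 by limma under any of 21 alternatives, 20 planned and 1 (the probe set of smallest spread for each gene) chosen after seeing the data. The lowest adjusted p was 0.177, and 1 to 4 genes had an unadjusted p under 0.05. The median of all members ran from −0.04 to 0.06, and the complex medians from −0.15 to 0.21. With quantile normalization the complex I median was 0.056. The number of the 94 genes with an interval within 1 log2 unit of 0 was 74 as reported. It was 78 with a gene's probe sets averaged and 82 on the probe set of smallest spread. With the spike-in batch it was 79, beside 7401 of all 18193 genes. Leaving out 1 array at a time, the median of all members ran from −0.041 to 0.058 and that of complex I from −0.0098 to 0.075, with both highest values without G1 replicate 3.

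The count over all genes depended more on the settings. It was 95 as reported, 183 (169 higher, 14 lower) with the spike-in batch, 168 (150 higher, 18 lower) without the noisiest probe sets, and 31 on the 6 arrays with spike-in signal. It was 0 with the replicate number as a block and 0 on labelling batch 1 alone, where limma's unadjusted p was under 0.05 in 1456 and 1596 genes. Leaving out 1 array gave 0 to 67, with 28 without G0 replicate 1, 67 without G0 replicate 3 and 0 without any of the other 6. In the settings with 0, limma's unadjusted p was under 0.05 in 1255 to 1658 genes. Whether the replicate numbers pair the samples is not known. The correlations of equal numbers were 0.07, 0.11, −0.14 and −0.14 for replicates 1 to 4. For replicates 1 and 2 the equal number gave the highest correlation. G1 replicate 3 correlated most with G0 replicate 4, at 0.10, and G1 replicate 4 with G0 replicate 3, at 0.31. The replicate block used equal numbers, and a block with G0 replicates 3 and 4 exchanged was not tested. With the replicate block 0 of the 94 genes passed and 3 had an unadjusted p under 0.05. Of 840 values of 40 named members under the alternatives, 835 moved by less than 1 SD between replicates and 65 had the opposite sign. Part of the 840 could not move. A changed batch term, the replicate block or no trend leaves the difference itself as it was, and the filters kept the same probe sets for these genes. Leaving out either replicate 4 gave the same difference as labelling batch 1 alone. The count of 835 is therefore no measure of robustness. The cause of the changes between settings was not tested. The number of arrays and the missing absolute levels limit what can be seen, and values of dim probe sets could not be told from those of bright ones.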
